A study of Mus musculus with 12 samples.

Results

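The 49 genes described here encode the NF-kB pathway and its regulators, from the adaptors below the TNF, IL-1 and Toll-like receptors to the transcription factor subunits and the proteins that switch them off. They were taken as a fixed list of gene symbols and matched through the GENCODE mouse annotation to the 54446 gene identifiers that were counted, and all 49 were found. By what is generally known of them, 25 were grouped as activators of the pathway, 18 as inhibitors and 6 as dual, meaning that both actions are described. Every one of the 49 had enough counts to be tested in all comparisons.

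NF-kB is a family of dimeric transcription factors held in the cytoplasm by IkB proteins. Receptors pass their signal through TRAF adaptors, ubiquitin ligases and the kinase TAK1 to the IKK complex, which marks IkB for degradation and so frees the dimer, while a slower branch runs through the kinase NIK. The pathway limits itself, since IkB alpha, A20 and other targets of NF-kB are among its inhibitors, and in tumor-infiltrating myeloid cells it drives cytokines, chemokines and survival genes. YTHDF2 is a reader protein that binds RNA carrying the m6A modification and directs it to decay, so the RNA recovered with it is a measure of which transcripts it holds.

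The study asked which transcripts YTHDF2 binds in myeloid cells of a tumor and whether ionizing radiation (IR) changes that. MC38 tumors, from a mouse colon carcinoma line, grew under the skin of C57BL/6J mice of 8 to 10 weeks and either sex. All mice were WT, which in this study means that they carried the floxed Ythdf2 allele (Ythdf2 f/f) without a Cre. The tumors were left unirradiated (Ctrl) or received 20 Gy of local IR, and CD11b+ myeloid cells were sorted from the tumors 3 days later. Each condition had 3 pools of cells, each from 5 mice, which the methods call technical replicates, so the errors and p-values below measure the spread between these pools, which may be technical. Each pool gave an Input library, a part of the lysate that measures transcript abundance, and an IP library of the RNA recovered with an antibody against YTHDF2. There was no IP with a control antibody among the libraries analysed, so enrichment is relative to Input only.

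The 12 libraries held 27852948 to 42382532 reads on genes, and 3 counts, the level taken as detectable, were worth 0.0708 to 0.108 CPM (counts scaled to a fixed total of reads on genes), a limit that covers counting error only. The share of uniquely aligned reads on no gene was 24.7% to 27.0% by group mean in the Inputs. In the IPs it was 42.3% ± 0.462 (SD, n = 3) for Ctrl, and it reached 51.4% ± 2.43 (SD, n = 3) for IR. Markers of monocytes and macrophages (10 genes) and of neutrophils (9 genes) were all detected, with summed levels of 4222 to 4394 and 8975 to 9841 CPM in the Ctrl Inputs. All 7 T cell and all 5 NK cell markers were under 1 CPM in the Inputs by their mean, as were 5 of 6 fibroblast, 4 of 6 epithelial tumor cell and 3 of 5 endothelial cell markers, with the epithelial marker Krt19 and the endothelial marker Cldn5 listed at 0. Other markers of these 3 lists were present, with means in the Ctrl Inputs of 121 CPM for Cdh1 and 4.72 for Epcam (epithelial), 25.9 for Pecam1 (endothelial) and 6.38 for Col1a1 (fibroblast). In the IR Inputs Cdh1 had a mean of 90.1 CPM. In such bulk samples, fewer cells of a type and less RNA per cell cannot be told apart. Of 5 B cell markers and 6 dendritic cell markers, 0 and 1 were under 1 CPM. The upstream and response genes described last are lists of known genes, not members. Transcript levels below are CPM after 1 TMM scaling over all 12 libraries, a method that sets the trimmed mean change between libraries to nil. Fold changes are on the log2 scale with their standard error (SE), from the quasi-likelihood test of edgeR with Benjamini-Hochberg adjustment over all tested genes, and a gene passed the test at an adjusted p under 0.05. Each comparison of 2 groups was scaled by TMM over its own 6 libraries, so its log2 fold changes are not those of the listed CPM. For the 49 genes the fitted value lay above the log2 ratio of the mean CPM by a median of 0.121 for IP over Input in Ctrl, 0.123 in IR and 0.0334 for the IP with IR, and differed by -0.0784 for the Input with IR. In 14 cases over these comparisons, 0 of which passed the test, the fitted value and the CPM ratio differed in sign. Statements on groups that do or do not overlap refer to the CPM. The exons of 12 members share 87 (Card9) to 830 bases (Nfkb2) with genes on the opposite strand, and the strand setting of the counting is not given in the sources used here, so reads of these genes may not be told apart. Besides these, they are Nkiras1, Ikbkg, Commd1, Nfkbib, Nkiras2, Ripk1, Ikbke, Traf5, Bcl3 and Tax1bp1, with 160 to 823 bases.

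In unirradiated tumors the transcripts of the pathway were split between the YTHDF2 IP and the Input. Of the 49 transcripts, 22 were higher in the IP than in the Input, where 34.1% of the 17416 genes tested were, and 24 were lower, where 34.6% of all genes were. Activators lay on both sides, with 13 higher and 11 lower of 25, and of the 18 inhibitors 6 were higher and 10 lower. The median log2 IP over Input was 0.39 for activators and -0.31 for inhibitors beside 0.02 for all genes tested. After IR, 16 of the 49 were higher in the IP, where 32.1% of 18650 genes were, and 20 were lower, where 30.4% were. Activators then gave 11 higher and 9 lower, inhibitors 4 higher and 8 lower, and the medians were -0.10 and -0.13 beside 0.10 for all genes. All 16 transcripts bound after IR were also bound in Ctrl, and 19 of the 20 depleted after IR were also depleted in Ctrl. This overlap was not counted over all genes tested, so it is not a trait of the 49. Across the 49 genes the log2 IP over Input in IR followed that in Ctrl with a Pearson's r of 0.909 and a Spearman's rho of 0.877, against 0.806 and 0.826 across the 16757 genes tested in both, a description across genes that share the libraries. Genes were tested from 10 counts in 3 libraries, whereas the lowest count of a member was 114 (Nlrc3). The part of count depth in these differences between the 49 and all genes was not tested.

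**Figure D1:**
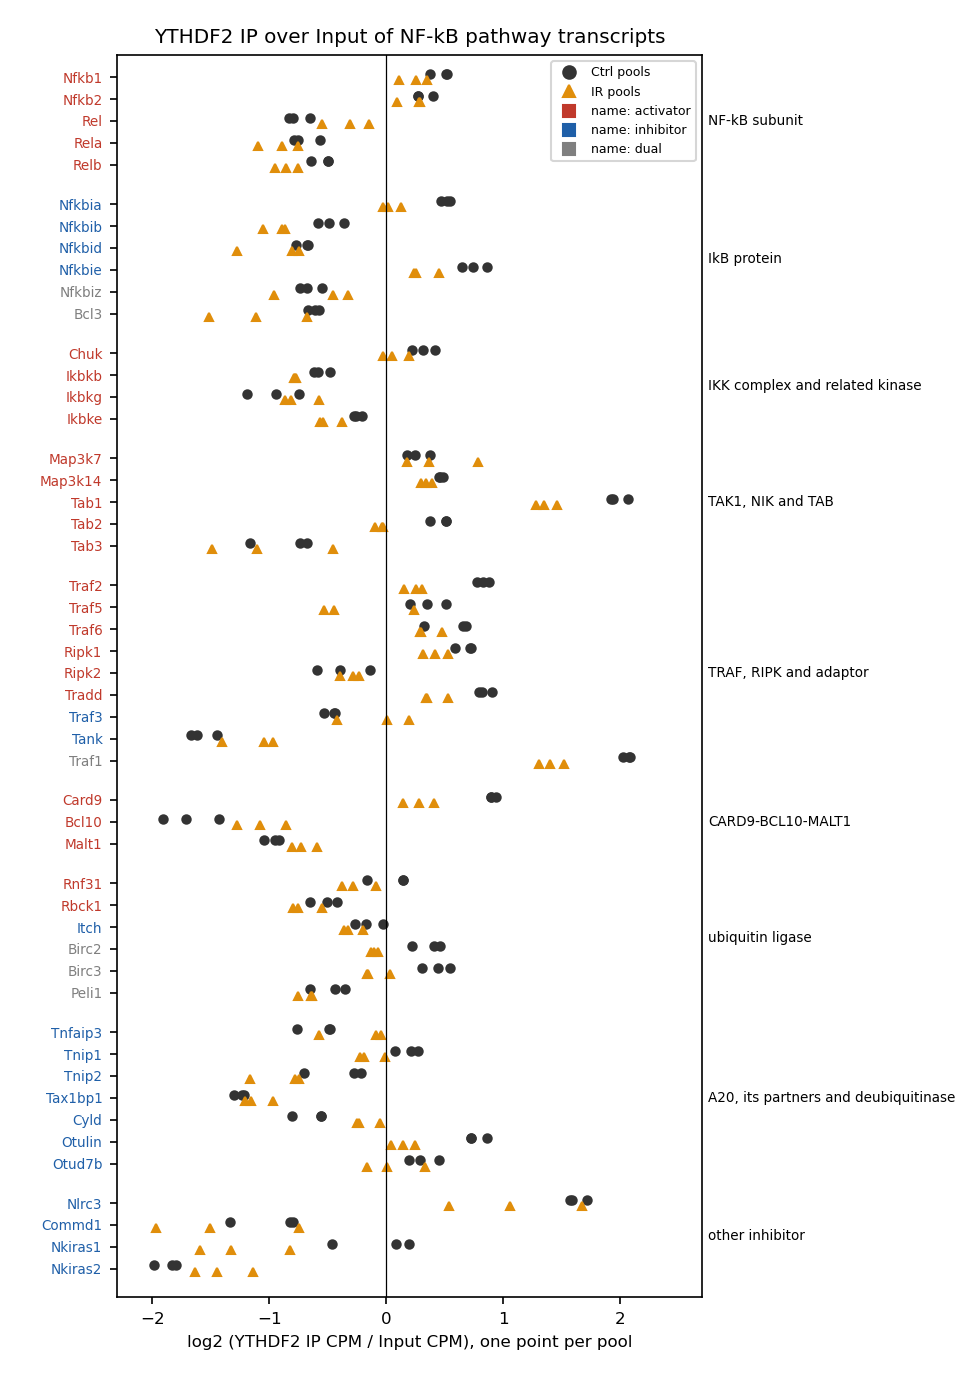
Each point is the log2 ratio of YTHDF2 IP to Input (CPM, horizontal axis) in 1 pool, for the 49 genes grouped by role, with circles for the 3 Ctrl pools and triangles for the 3 IR pools. Traf1 and Tab1 lie far to the right, Nkiras2, Bcl10 and Tank far to the left, and the ratios of Traf1, Tab1, Card9 and Otulin lie lower in IR than in Ctrl in every pool.

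The most strongly bound transcript of the pathway was Traf1, an NF-kB-induced adaptor of the TNF receptor family that is described as both promoting and restraining the signal. Traf1 (chromosome 2, 34941750 to 34961772, minus strand, mm10) stood at 210.0, 208 and 218 CPM in Ctrl Input, 853, 879 and 926 in Ctrl IP, 272, 257 and 274 in IR Input and 672, 739 and 721 in IR IP. The IP values exceeded the Input values in every pool, by the fit 4.54-fold in Ctrl (log2 2.18 ± 0.04, edgeR adjusted p = 1.27e-17) and 2.89-fold in IR (log2 1.53 ± 0.05, edgeR adjusted p = 3.64e-10). Next came Tab1 (chromosome 15, 80133127 to 80161707, plus strand), which encodes an activating partner of TAK1, with 40.1, 42.04 and 41.3 CPM in Ctrl Input, 169, 161 and 157 in Ctrl IP, 48.4, 43.7 and 47.9 in IR Input and 117, 121 and 123 in IR IP. By the fit Tab1 was 4.29-fold enriched in Ctrl (log2 2.102 ± 0.05, edgeR adjusted p = 5.41e-16) and 2.804-fold in IR (log2 1.49 ± 0.07, edgeR adjusted p = 8.39e-09). Nlrc3, which encodes an inhibitor of TRAF6 signalling, was also bound (log2 1.76 ± 0.15 in Ctrl and 1.23 ± 0.26 in IR), although it was the least expressed of the 49 per length of exon at 0.602 CPM per kb in the Ctrl Inputs. Most depleted from the IP were Nkiras2, which encodes a kB-Ras protein that slows IkB degradation (log2 -1.75 ± 0.10 in Ctrl, edgeR adjusted p = 3.83e-11), Bcl10 (log2 -1.55 ± 0.11, edgeR adjusted p = 1.08e-09) and Tank (log2 -1.45 ± 0.09, edgeR adjusted p = 1.15e-10).

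The pentamer GGACT is a common form of the sequence in which m6A is laid down, and the sites below show the most bound and the most depleted transcripts of the pathway with their GGACT in capitals and 12 bases on either side. They are sites of Traf1 and the only site of Tab1, Nkiras2, Bcl10 and Tank in the longest protein-coding transcript of each gene in GENCODE M21, numbered from the transcript's 5′ end.
Traf1, coding sequence, bases 922 to 926: cagtgtgtggccGGACTgtcagcctcttc
Traf1, 3′ UTR, bases 1797 to 1801: ttaacctgccctGGACTgagttcctatgt
Tab1, coding sequence, bases 1469 to 1473: ggagccctatgtGGACTttgctgagttct
Nkiras2, 3′ UTR, bases 1688 to 1692: tggctagtagctGGACTttatatttatac
Bcl10, coding sequence, bases 739 to 743: tggaagttggcaGGACTgaaaacagcagc
Tank, coding sequence, bases 762 to 766: gtcacaccaagaGGACTgggccgggatga
All 49 transcripts held at least 1 GGACT on the sense strand, as 92.4% of 12870 protein-coding genes tested did. The motif density did not sort bound from depleted transcripts, as Tab1 with 0.337 per kb was bound, Tank with 0.371 and Nkiras2 with 0.477 were depleted, and so was Tnfaip3 with 11 sites and 2.49 per kb, whereas Otulin with 2.68 per kb was bound. Over the 49 genes, Spearman's rho between GGACT per kb and log2 IP over Input was 0.111 in Ctrl and 0.111 in IR, against 0.0943 and 0.0676 over the 12870 genes. The length of the transcript gave -0.104 in Ctrl and 0.159 in IR over the 49 and 0.256 and 0.398 over the 12870. The GC content gave 0.252 and 0.145 over the 49 and 0.19 and 0.147 over the 12870. Motif density, length and base composition differ together between transcripts, and the presence of the motif is a description, not a measure of methylation.

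Among the 5 NF-kB subunits, the precursor genes Nfkb1 and Nfkb2 were bound and the genes of the transactivating subunits Rel, Rela and Relb were depleted in Ctrl. Nfkb1, the gene of p105 and p50, stood at 278, 276 and 281 CPM in Ctrl Input, 395, 397 and 366 in Ctrl IP, 296, 279 and 280.1 in IR Input and 320.3, 356 and 335 in IR IP. Its IP values exceeded the Input in every pool, by 0.59 ± 0.04 in Ctrl and 0.37 ± 0.05 in IR on the log2 scale. Nfkb2, the gene of p100 and p52 that serves the slower branch, stood at 134, 132 and 134 CPM in Ctrl Input, 161, 174 and 161 in Ctrl IP, 146, 145 and 151 in IR Input and 178, 155 and 184 in IR IP. It too was enriched in both conditions, by 0.44 ± 0.05 and 0.35 ± 0.07. Rela, which encodes the subunit of the main dimer, stood at 93.1, 90.9 and 87.8 CPM in Ctrl Input, 53.8, 53.8 and 59.3 in Ctrl IP, 102, 99.03 and 103 in IR Input and 55.3, 58.7 and 48.4 in IR IP. Its IP lay below Input in every pool, with log2 IP over Input of -0.58 ± 0.06 in Ctrl and -0.78 ± 0.08 in IR. Relb, the partner of p52, stood at 98.4, 92.9 and 105 CPM in Ctrl Input, 69.7, 65.9 and 67.3 in Ctrl IP, 124, 123 and 124 in IR Input and 64.3, 68.2 and 73.4 in IR IP. In Ctrl its log2 IP over Input was -0.43 ± 0.06 and in IR -0.73 ± 0.07, and its Input level rose with IR by 0.24 ± 0.04 (edgeR adjusted p = 3.13e-05), with no overlap between the groups. Per kb of exon, the 5 Input levels in Ctrl ran from 12.1 CPM per kb for Rel to 29.5 for Rela, with 23.1, 25.4 and 29.03 for Nfkb1, Relb and Nfkb2.

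Rel, which encodes c-Rel, the subunit prominent in blood cells, was the only one of the 5 whose binding rose with IR under TMM scaling. Its levels were 89.6, 90.7 and 91.7 CPM in Ctrl Input, 56.9, 51.02 and 52.8 in Ctrl IP, 85.1, 83.6 and 85.8 in IR Input and 58.3, 75.4 and 69.4 in IR IP. The IP level was higher in every IR pool than in any Ctrl pool (log2 0.37 ± 0.10, edgeR adjusted p = 0.0235), the Input level fell (log2 -0.17 ± 0.04, edgeR adjusted p = 7.19e-04), and the log2 IP over Input moved from -0.64 ± 0.06 in Ctrl to -0.20 ± 0.09 in IR. The change of 0.46 ± 0.11 passed the test (edgeR adjusted p = 0.00488) and held in all 18 alternative settings. That of Nfkb1, -0.20 ± 0.06, and that of Relb, -0.28 ± 0.09, passed it narrowly (edgeR adjusted p = 0.0290 and 0.0359). Both were lost with the pools as a block (adjusted p = 0.0548 and 0.0532) and when any of 9 or 10 of the 12 libraries was left out, where they ranged from -0.22 to -0.12 and from -0.33 to -0.20, and both turned positive with library size as the only scaling (0.11 and 0.03). For Nfkb2 and Rela the changes were -0.07 ± 0.08 and -0.18 ± 0.10 and did not pass. With library size only, that of Nfkb2 was 0.25 and passed as a rise (adjusted p = 0.0439).

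The 6 IkB genes split in the same way, with Nfkbia and Nfkbie bound and the other four depleted in Ctrl. Nfkbia, the gene of IkB alpha and a classical target of NF-kB, had the highest level per length of the 49, at 263 CPM per kb in the Ctrl Inputs. It stood at 427, 416 and 427 CPM in Ctrl Input, 593, 609 and 611 in Ctrl IP, 564, 528 and 554 in IR Input and 555, 533 and 606 in IR IP. Its Input level rose with IR by 0.29 ± 0.03 (edgeR adjusted p = 1.07e-08) without overlap of the groups, while its IP levels in Ctrl and IR overlapped (log2 -0.06 ± 0.05). The log2 IP over Input went from 0.63 ± 0.04 in Ctrl to 0.17 ± 0.05 in IR, a change of -0.45 ± 0.06 (edgeR adjusted p = 1.97e-05) that did not pass with library size only. In IR the IP and Input values overlapped, and the enrichment there did not pass without IR Input replicate 2 or 3 (highest adjusted p 0.0891). Nfkbie, the gene of IkB epsilon, stood at 77.3, 80.4 and 78.2 CPM in Ctrl Input, 129, 126 and 142 in Ctrl IP, 86.9, 91.4 and 86.3 in IR Input and 104, 108 and 118 in IR IP. It was bound in every pool of both conditions, by 0.87 ± 0.06 in Ctrl and 0.44 ± 0.07 in IR, and the change of -0.41 ± 0.09 passed (edgeR adjusted p = 0.00224).

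Nfkbib, which encodes IkB beta, stood at 58.7, 62.3 and 62.2 CPM in Ctrl Input, 41.9, 41.7 and 48.5 in Ctrl IP, 79.5, 76.9 and 74.1 in IR Input and 38.4, 42.2 and 39.9 in IR IP. It was depleted in both conditions and more so after IR, with a change of -0.44 ± 0.11 (edgeR adjusted p = 0.00576) that was lost with library size only and narrowly missed the threshold without Ctrl IP replicate 3 (adjusted p = 0.0522), and its Input rose by 0.25 ± 0.05 (edgeR adjusted p = 4.60e-05). Nfkbid, a nuclear IkB protein, stood at 63.1, 57.9 and 68.6 CPM in Ctrl Input, 39.3, 33.9 and 43.1 in Ctrl IP, 69.7, 66.5 and 66.1 in IR Input and 28.7, 39.7 and 37.9 in IR IP. Nfkbiz, the nuclear IkB zeta that helps induce secondary response genes, stood at 34.004, 31.3 and 30.7 CPM in Ctrl Input, 20.4, 19.5 and 21.03 in Ctrl IP, 30.8, 30.9 and 29.3 in IR Input and 22.5, 15.8 and 23.4 in IR IP. Bcl3, a nuclear IkB protein that can activate or repress, stood at 37.05, 34.4 and 36.1 CPM in Ctrl Input, 24.9, 22.6 and 22.7 in Ctrl IP, 42.9, 39.5 and 41.9 in IR Input and 15.001, 24.6 and 19.3 in IR IP. These 3 genes of nuclear IkB proteins lay below Input in every pool in Ctrl, with log2 values from -0.59 to -0.49, and their change with IR, from -0.44 to 0.12, did not pass. The depletion of Nfkbiz in IR was lost when any of 3 of the 6 libraries was left out (highest adjusted p 0.110).

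Of the kinases, Chuk (IKK alpha) was bound and Ikbkb (IKK beta), Ikbkg (the scaffold NEMO) and Ikbke (IKK epsilon) were depleted in Ctrl. Chuk stood at 62.3, 66.001 and 63.7 CPM in Ctrl Input, 83.3, 77.1 and 79.3 in Ctrl IP, 83.04, 82.3 and 82.6 in IR Input and 95.1, 85.4 and 80.97 in IR IP. Its Input level rose with IR by 0.29 ± 0.04 (edgeR adjusted p = 2.99e-06), the fifth largest absolute change among the members, and the Input groups did not overlap. Ikbkb, Ikbkg and Ikbke had log2 IP over Input of -0.44 ± 0.05, -0.83 ± 0.11 and -0.12 ± 0.05 in Ctrl and of -0.65 ± 0.05, -0.62 ± 0.13 and -0.37 ± 0.06 in IR. Their Input changes, 0.04, 0.02 and -0.01, did not pass, nor did the changes of binding of the 4 kinase genes, which ran from -0.22 to 0.24. The call of Ikbke in Ctrl was lost when any of 4 of 6 libraries was left out (highest adjusted p 0.233), and that of Chuk in IR, 0.20 ± 0.07, when any of 3 of 6 was (highest adjusted p 0.124).

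Of the TAK1 and NIK group, Map3k7 (TAK1), Map3k14 (NIK), Tab1 and Tab2 were bound in Ctrl and Tab3 was depleted. Map3k7 and Map3k14 had log2 IP over Input of 0.39 ± 0.06 and 0.59 ± 0.04 in Ctrl and of 0.58 ± 0.10 and 0.47 ± 0.05 in IR. Tab2, whose product links TAK1 to ubiquitin chains, stood at 155, 162 and 161 CPM in Ctrl Input, 221, 231 and 209 in Ctrl IP, 182, 190.4 and 185 in IR Input and 178, 187 and 173 in IR IP. It was bound in every Ctrl pool (log2 0.59 ± 0.05), whereas in IR the IP and Input values overlapped (fitted log2 0.07 ± 0.05, edgeR adjusted p = 0.258; log2 -0.05 by the mean CPM), while its Input rose by 0.14 ± 0.04 and its IP fell by 0.27 ± 0.06 on the log2 scale. The changes of Tab1, -0.59 ± 0.08 (edgeR adjusted p = 2.36e-05), and of Tab2, -0.50 ± 0.07 (edgeR adjusted p = 2.56e-05), passed, and that of Tab1 held in all 18 alternatives. The exons of Map3k14 share 135 bases with a gene on the same strand.

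Among the adaptors of the receptor complexes, 6 of 9 were higher in the Ctrl IP, where 34.1% of all genes tested were, with a median log2 IP over Input of 0.68, and Traf3, Tank and Ripk2 lower. Traf2, which recruits the cIAP ligases, stood at 46.9, 46.7 and 45.8 CPM in Ctrl Input, 80.3, 83.04 and 84.1 in Ctrl IP, 57.1, 54.7 and 53.7 in IR Input and 68.1, 60.98 and 66.5 in IR IP. Traf5, a close relative of Traf2, stood at 24.9, 23.1 and 23.2 CPM in Ctrl Input, 28.7, 29.4 and 33.1 in Ctrl IP, 24.4, 22.1 and 24.5 in IR Input and 16.9, 26.1 and 18.03 in IR IP. Tradd, the adaptor of TNF receptor 1, stood at 31.8, 31.1 and 31.9 CPM in Ctrl Input, 55.4, 54.9 and 59.6 in Ctrl IP, 37.7, 37.4 and 36.3 in IR Input and 54.4, 47.4 and 46.2 in IR IP. In the Ctrl pools the IP of these 3 genes lay above the Input without overlap, by 0.95 ± 0.06, 0.48 ± 0.09 and 0.96 ± 0.07 on the log2 scale. In IR the IP still lay above the Input for Traf2 (0.36 ± 0.08) and Tradd (0.53 ± 0.09), whereas the values of Traf5 overlapped (-0.10 ± 0.16, edgeR adjusted p = 0.622). Their changes with IR passed the test, with -0.56 ± 0.10 (edgeR adjusted p = 2.02e-04) for Traf2, -0.55 ± 0.19 (0.0468) for Traf5 and -0.41 ± 0.12 (0.0163) for Tradd. The call of Traf5 was lost without any of 11 of the 12 libraries (range -0.75 to -0.41) and that of Tradd without any Ctrl IP library or IR IP replicate 3 (range -0.47 to -0.29, highest adjusted p 0.102). Traf6, the ligase of IL-1 and Toll-like receptor signals, and Ripk1, the kinase of the TNF receptor 1 complex, were bound in both conditions (log2 0.68 ± 0.08 and 0.80 ± 0.05 in Ctrl, 0.48 ± 0.09 and 0.54 ± 0.07 in IR), and their changes of -0.17 ± 0.12 and -0.23 ± 0.08 did not pass. The exons of Ripk1 share 511 bases with Gm17084 on the same strand. Ripk2, the NOD receptor kinase, lay at -0.25 ± 0.10 in Ctrl, a call lost with the pools as a block (adjusted p = 0.0635) and without any of 4 of 6 libraries (highest adjusted p 0.213).

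Traf3 and Tank, inhibitors within this group, fell most of the 49 in the Input after IR. Traf3, which keeps NIK levels low, stood at 62.9, 65.8 and 67.9 CPM in Ctrl Input, 46.4, 45.4 and 49.9 in Ctrl IP, 46.8, 48.1 and 49.7 in IR Input and 35.01, 54.98 and 49.8 in IR IP. Its Input fell by 0.52 ± 0.05 on the log2 scale (edgeR adjusted p = 1.10e-09) without overlap, its IP did not pass (0.01 ± 0.14), and the change of log2 IP over Input, 0.45 ± 0.16, missed the threshold (edgeR adjusted p = 0.0538) and passed it with the pools as a block (adjusted p = 0.0329). Tank, which restrains TRAF and TBK1 signals, stood at 49.6, 49.7 and 48.1 CPM in Ctrl Input, 18.2, 16.1 and 15.1 in Ctrl IP, 36.1, 39.6 and 37.3 in IR Input and 17.5, 20.2 and 14.1 in IR IP. Its Input fell by 0.46 ± 0.06 on the log2 scale (edgeR adjusted p = 1.04e-07), its IP values overlapped between conditions, and the change of 0.47 ± 0.16 passed narrowly (edgeR adjusted p = 0.0491) but not with the pools as a block (adjusted p = 0.0531) or without any of 9 of the 12 libraries (range 0.37 to 0.67).

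The 3 genes of the CARD9-BCL10-MALT1 complex, which carries signals of C-type lectin receptors to NF-kB in myeloid cells, moved in opposite ways. Card9 (chromosome 2, 26352176 to 26360918, minus strand), the myeloid scaffold of the complex, stood at 230.4, 235 and 245 CPM in Ctrl Input, 428, 437 and 470.1 in Ctrl IP, 252, 238 and 246 in IR Input and 279, 289 and 326 in IR IP. It was bound in every Ctrl pool (log2 1.03 ± 0.04) and less so in IR (0.40 ± 0.06), and its IP level was lower in every IR pool than in any Ctrl pool (log2 -0.55 ± 0.06, edgeR adjusted p = 1.12e-05) while the Input values overlapped (fitted log2 -0.03 ± 0.03, and 0.05 by the mean CPM). Bcl10 (chromosome 3, 145922804 to 145934356, plus strand), its adaptor, stood at 30.9, 32.9 and 32.6 CPM in Ctrl Input, 11.4, 10.04 and 8.68 in Ctrl IP, 30.2, 31.9 and 30.9 in IR Input and 16.7, 15.03 and 12.7 in IR IP. Malt1, the protease of the complex, stood at 218, 218 and 219.9 CPM in Ctrl Input, 113, 115 and 107 in Ctrl IP, 229, 217 and 218 in IR Input and 131, 144 and 132 in IR IP. Both were depleted in Ctrl and less depleted in IR. The IP level rose by 0.59 ± 0.19 for Bcl10 (edgeR adjusted p = 0.0481) and by 0.31 ± 0.07 for Malt1 (edgeR adjusted p = 0.00604) and the Input groups overlapped. The IP call of Bcl10 was lost when any of 5 of the 6 IP libraries was left out (range 0.50 to 0.70, highest adjusted p 0.185). The changes of binding, -0.61 ± 0.08 for Card9 (edgeR adjusted p = 7.03e-06), 0.64 ± 0.18 for Bcl10 (0.0127) and 0.29 ± 0.07 for Malt1 (0.00553), held in all 18 alternatives.

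Among the ubiquitin ligases, the cIAP genes Birc2 and Birc3, whose products ubiquitinate RIPK1 and also mark NIK for degradation, were bound in Ctrl and did not pass in IR. Birc2 stood at 111, 99.6 and 96.9 CPM in Ctrl Input, 129.5, 133 and 134 in Ctrl IP, 135, 128 and 131 in IR Input and 128, 117 and 122 in IR IP. Birc3, which lies next to it on chromosome 9 and is itself induced by NF-kB, stood at 136, 128 and 128 CPM in Ctrl Input, 168, 174 and 187 in Ctrl IP, 158, 142 and 154 in IR Input and 141, 145 and 138 in IR IP. In Ctrl the log2 IP over Input was 0.48 ± 0.06 and 0.55 ± 0.05, without overlap of IP and Input, and in IR it was 0.02 ± 0.06 and 0.03 ± 0.06, against -0.10 for both by the mean CPM. These passed only with library size as the scaling and in the fit of protein-coding genes. Both changes passed, by -0.44 ± 0.08 (edgeR adjusted p = 7.45e-04) and -0.51 ± 0.08 (edgeR adjusted p = 8.59e-05), but not with library size only, and the Input of Birc2 rose by 0.28 ± 0.05 (edgeR adjusted p = 1.58e-05). Rnf31 and Rbck1, which encode HOIP and HOIL-1 of the linear chain assembly complex, lay at 0.16 ± 0.08 and -0.40 ± 0.05 in Ctrl, and only Rbck1 passed. The exons of Rnf31 share 123 bases with Irf9 on the same strand. Peli1, a ligase with described actions in both directions, was depleted in both conditions (-0.36 ± 0.07 and -0.55 ± 0.07), and Itch, which works with A20, did not pass in any comparison.

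The genes around A20 were split too, with Otulin, Tnip1 and Otud7b bound and Tnfaip3, Tnip2, Tax1bp1 and Cyld depleted in Ctrl. Otulin (chromosome 15, 27542635 to 27630693, minus strand), which encodes the deubiquitinase of linear chains, stood at 141, 137 and 140.3 CPM in Ctrl Input, 233, 250.1 and 232 in Ctrl IP, 163, 159 and 165 in IR Input and 193, 176 and 169.6 in IR IP. Its Input rose with IR by 0.14 ± 0.04 (edgeR adjusted p = 0.00190) while its IP fell by 0.38 ± 0.07 on the log2 scale (edgeR adjusted p = 8.32e-04), and log2 IP over Input went from 0.89 ± 0.05 to 0.27 ± 0.06. Tnip1, which encodes the A20 partner ABIN-1, stood at 154, 143 and 146 CPM in Ctrl Input, 163, 173 and 169 in Ctrl IP, 148, 144 and 151 in IR Input and 127, 142 and 132 in IR IP. It was bound in Ctrl (0.31 ± 0.05) and lay at -0.02 ± 0.06 in IR, where it did not pass. Tnip2, which encodes ABIN-2, stood at 52.2, 52.2 and 49.1 CPM in Ctrl Input, 32.1, 45.01 and 40.7 in Ctrl IP, 59.9, 56.5 and 56.1 in IR Input and 26.8, 33.8 and 32.6 in IR IP, with -0.26 ± 0.10 in Ctrl, a call lost without any of 3 of 6 libraries, and -0.77 ± 0.10 in IR.

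Cyld (chromosome 8, 88697028 to 88751945, plus strand), a deubiquitinase that removes the chains on which IKK is activated, was the counterpart of Otulin in direction. It stood at 56.5, 61.8 and 63.9 CPM in Ctrl Input, 38.4, 41.9 and 36.5 in Ctrl IP, 58.7, 55.4 and 58.3 in IR Input and 49.9, 46.7 and 56.4 in IR IP. Its IP rose with IR by 0.42 ± 0.11 (edgeR adjusted p = 0.0147), its Input fell by 0.16 ± 0.05 on the log2 scale (edgeR adjusted p = 0.0106), and it was depleted in Ctrl (-0.52 ± 0.07) but not in IR (-0.05 ± 0.09, edgeR adjusted p = 0.640). The changes of binding were -0.60 ± 0.07 for Otulin (edgeR adjusted p = 5.69e-06), 0.49 ± 0.12 for Cyld (0.00469), -0.30 ± 0.08 for Tnip1 (0.00685) and -0.48 ± 0.15 for Tnip2 (0.0282). Those of Otulin and Cyld held in all 18 alternatives, that of Tnip1 was lost without Ctrl IP replicate 2 or 3 or IR IP replicate 3 (range -0.34 to -0.22, highest adjusted p 0.0899) and was 0.01 with library size only, and that of Tnip2 was lost without any of 9 of the 12 libraries (range -0.55 to -0.31). Tnfaip3, the gene of A20 itself, was depleted in Ctrl (-0.46 ± 0.08, edgeR adjusted p = 6.62e-05), and its change of 0.38 ± 0.15 did not pass (edgeR adjusted p = 0.0821). Tax1bp1, another partner of A20, was depleted in both conditions (-1.13 ± 0.05 and -0.98 ± 0.07).

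Of the remaining inhibitors, the kB-Ras genes went in opposite directions. Nkiras1 stood at 9.04, 7.76 and 9.06 CPM in Ctrl Input, 6.54, 8.92 and 9.598 in Ctrl IP, 11.9, 10.7 and 12.5 in IR Input and 6.71, 4.24 and 4.101 in IR IP. Its Input rose with IR by 0.36 ± 0.11 (edgeR adjusted p = 0.00797; not without Ctrl Input replicate 2, adjusted p = 0.0604) and its log2 IP over Input went from 0.07 ± 0.17 to -1.096 ± 0.23, the widest change of the 49 at -1.15 ± 0.29 (edgeR adjusted p = 0.00747). It is a low transcript whose exons overlap those of Rpl15 and Ube2e1 on the opposite strand over 823 bases. Nkiras2 stood at 37.9, 39.3 and 36.5 CPM in Ctrl Input, 9.54, 10.996 and 10.5 in Ctrl IP, 34.98, 35.7 and 35.8 in IR Input and 12.8, 16.2 and 11.5 in IR IP. Its change of 0.50 ± 0.17 passed narrowly (edgeR adjusted p = 0.0416), but not with the pools as a block (adjusted p = 0.0648) or without any of 8 of the 12 libraries (range 0.37 to 0.68). Nlrc3 stood at 4.03, 4.08 and 4.67 CPM in Ctrl Input, 12.3, 13.5 and 13.96 in Ctrl IP, 3.55, 3.19 and 4.59 in IR Input and 7.46, 10.3 and 6.67 in IR IP. Commd1, whose product promotes the turnover of NF-kB subunits, stood at 16.02, 16.9 and 16.5 CPM in Ctrl Input, 6.32, 9.57 and 9.52 in Ctrl IP, 16.4, 15.9 and 19.2 in IR Input and 9.78, 4.03 and 6.74 in IR IP, with -0.84 ± 0.15 in Ctrl and -1.202 ± 0.27 in IR, and it shares 294 bases of exon with a gene on its own strand. Neither Nlrc3 (-0.51 ± 0.29) nor Commd1 (-0.34 ± 0.32) passed for the change of binding.

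**Figure D2:**
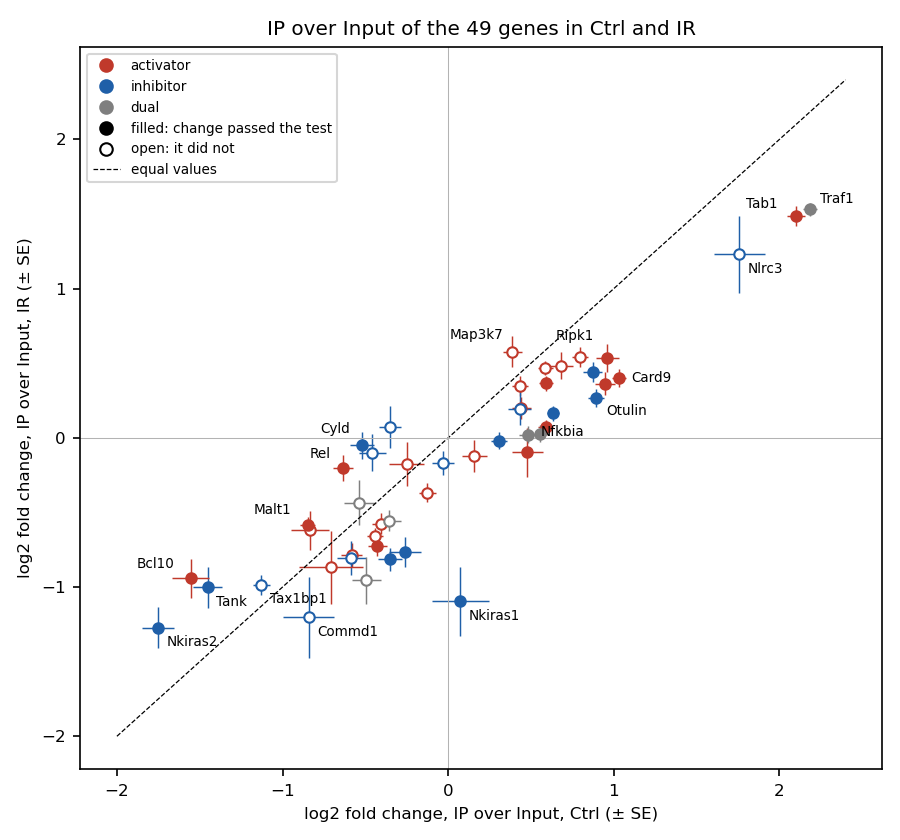
Log2 IP over Input of the 49 genes in Ctrl (horizontal) and IR (vertical), with SE bars from 3 pools per group, colored by class; filled points passed the test for the change (18 lower and 6 higher in IR; 4 lower and 13 higher with library size as the only scaling). Bound genes such as Card9 and Otulin lie under the dashed line of equal values and depleted genes such as Bcl10, Rel and Cyld over it. Other depleted genes, such as Rela, Relb, Nfkbib and Tnip2, lie under the line, being more depleted in IR, and the bound gene Map3k7 lies over it.

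The change of binding with IR was tested as the interaction of fraction and condition over all 12 libraries. Binding fell for 18 of the 49 transcripts, where 13.9% of 20720 genes fell, and rose for 6, where 6.28% rose, but with library size as the only scaling 4 fell and 13 rose, since that scaling moved the median over all genes from -0.0834 to 0.227. The median change of the 49 was -0.214 with TMM and 0.0991 with library size only. By class, 8 activators fell and 3 rose, 7 inhibitors fell and 3 rose and 3 dual genes fell, whereas with library size only 2 activators fell and 7 rose, 1 inhibitor fell and 6 rose and 1 dual gene fell. The calls of Nfkbia, Nfkbie, Tab2, Traf2, Birc2, Birc3 and Nkiras1 were lost under that scaling and under no other alternative. Those of Nfkb1, Relb, Nfkbib, Traf5, Tradd, Tnip1 and Tnip2 were lost under it and under others. Without Ctrl IP replicate 3 the 18 became 11. The directions of 8 transcripts held under all 18 alternatives, scaling included. Binding of Traf1, Tab1, Card9 and Otulin was lower after IR and that of Rel, Bcl10, Malt1 and Cyld was higher. Traf1 had a change of -0.63 ± 0.06 (edgeR adjusted p = 2.31e-07), beside the 4.54-fold enrichment in Ctrl and 2.89-fold in IR. The first 4 were bound and the last 4 depleted in Ctrl, so that each moved towards equal IP and Input. The Ctrl ratio is part of the change by which these genes were picked, which can favour such a move. The scaling also sets the point of equal IP and Input. The move towards it did not hold for all depleted transcripts, as Relb, Nfkbib and Tnip2 passed the test as falls under TMM and were more depleted in IR. The share of reads on no gene differed between the IP libraries of the 2 conditions, as given above, and its part in these changes was not tested. Replicates of the IR IP also differed more from each other than those of the Ctrl IP, with a variance-to-mean ratio of 17.2 to 21.5 against 8.83 to 9.96. A transcript that passed in Ctrl and not in IR may therefore differ in noise as well as in level.

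**Figure D3:**
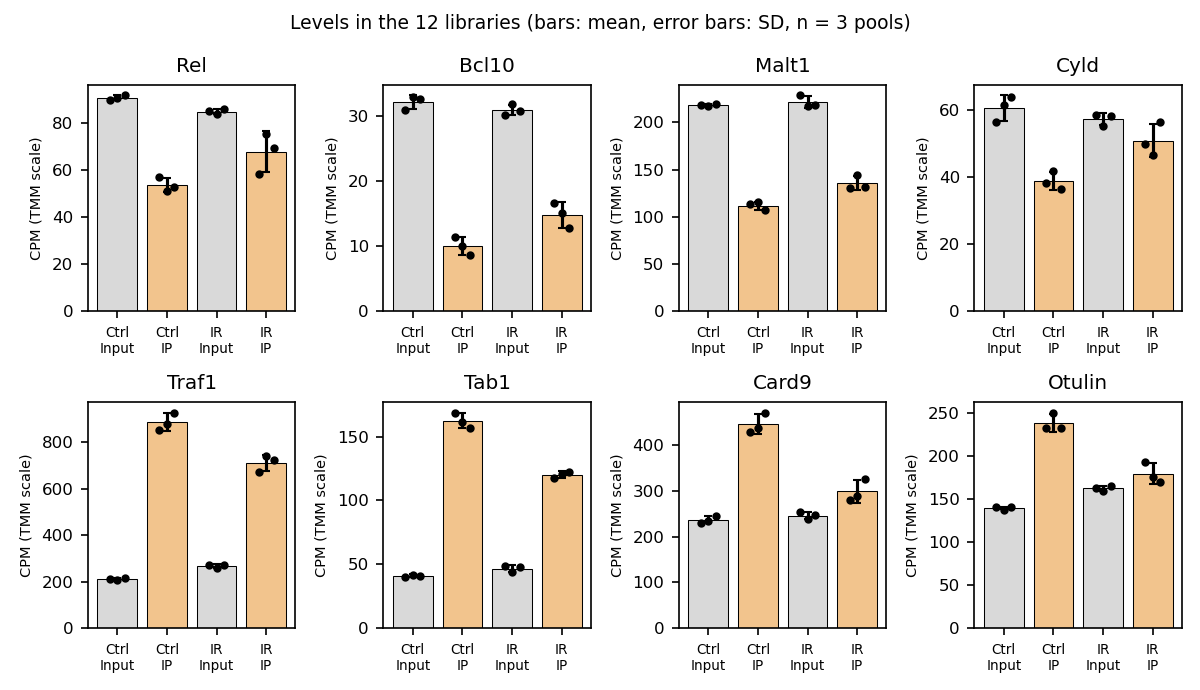
Levels (CPM, vertical axis from 0) of 8 genes in each of the 12 libraries, with points for pools, bars for the mean and error bars for the SD (n = 3). In the upper row (Rel, Bcl10, Malt1, Cyld) the IP bars lie under the Input bars and come closer to them in IR; in the lower row (Traf1, Tab1, Card9, Otulin) the IP bars lie over the Input bars and come closer in IR; the change of each gene passed the test under all 18 alternatives.

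Within a pool, the contrast between classes does not depend on the scaling between libraries. With CPM on the scale of all 12 libraries, the median log2 IP over Input of activators exceeded that of inhibitors by 0.676, 0.598 and 0.495 in the Ctrl pools and by 0.118, 0.191 and 0.179 in the IR pools (mean ± SD of 0.590 ± 0.091 and 0.163 ± 0.039, n = 3 each). The IR pools thus lay below the Ctrl pools without overlap, a description for which no test was made, as the genes were chosen with results known. This is a gap between class medians and does not mean that activators lost more binding than inhibitors. Gene by gene, the median change of binding under TMM was -0.19 for activators and -0.26 for inhibitors. The spread of log2 IP over Input over the 49 genes also narrowed, from an SD of 0.871, 0.871 and 0.859 in the Ctrl pools to 0.675, 0.729 and 0.690 in the IR pools. Over the 16757 genes tested in both conditions it was 1.42 to 1.43 in Ctrl and 1.43 to 1.52 in IR. The interquartile range of the 49 was 1.126 to 1.188 in the Ctrl pools and 0.935 to 1.051 in the IR pools. For protein-coding genes tested in both conditions it was lower in IR too, with 1.556 to 1.574 in Ctrl and 1.488 to 1.532 in IR. For all genes it was 1.735 to 1.77 in Ctrl and 1.716 to 1.766 in IR.

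**Figure D4:**
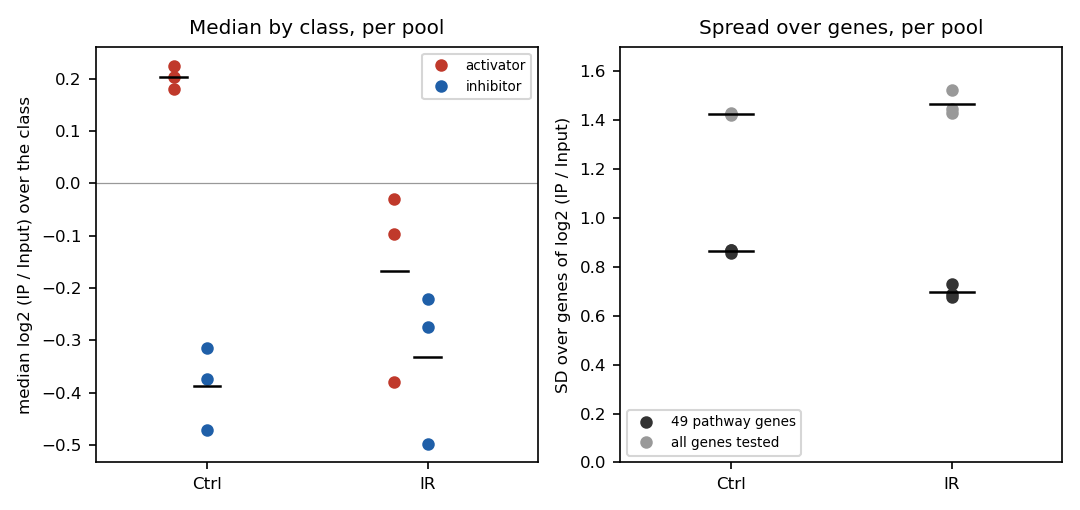
Left, median log2 IP over Input of the 25 activators and the 18 inhibitors in each pool, with a line at the mean of 3 pools; the level of these medians depends on the scaling, the gap within a pool does not, and it is 0.590 on average in Ctrl and 0.163 in IR. Right, SD of log2 IP over Input over the 49 pathway genes and over all genes tested, per pool, with a line at the mean.

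In the Input, which reads transcript abundance, IR moved genes of the pathway in both directions. Of the 49 genes 15 rose, where 21.0% of 16914 genes rose, and 9 fell, where 23.9% fell. Activators gave 7 higher and 4 lower, inhibitors 4 higher and 5 lower, and 4 dual genes were higher, and the median change of the 49 was 0.03 beside 0.01 for all genes. The changes ran from -0.52 ± 0.05 for Traf3 to 0.36 ± 0.11 for Nkiras1, so that none of the 49 reached a 1.5-fold change. Traf1 rose by 0.26 ± 0.03 (edgeR adjusted p = 4.88e-07), and 4 of the 6 ubiquitin ligase genes rose, with values from 0.13 for Birc3 to 0.28 for Birc2. Tnfaip3 fell by 0.22 ± 0.06 on the log2 scale (edgeR adjusted p = 0.00183), opposite to Nfkbia. Of the 15 that rose 10 held without each library in turn and of the 9 that fell 4 did, with Tab3, Traf6, Ripk1, Cyld, Nkiras2, Tradd, Rnf31, Birc3, Peli1 and Nkiras1 each lost without at least 1 library. In a fit of all 12 libraries together, 13 rose and 2, Traf3 and Tank, fell. Neutrophil markers were higher in the IR Inputs too, with 6 of 9 past the test and a sum of 11902 to 12457 CPM against 8975 to 9841 in Ctrl, and so was the sum of the monocyte and macrophage markers, with 5250 to 5288 against 4222 to 4394 CPM and 6 of 10 higher and 3 lower. The largest rise in this list was that of Itgam, the gene of CD11b, from a mean of 962 CPM in Ctrl to 1752 in IR. The means of Csf1r, Adgre1 and Mrc1 were lower in IR (218 and 212, 31.9 and 28.6, and 126 and 96.8 CPM). The part of all these markers in the changes of the 49 genes was not tested. Ythdf2 itself stood at 58.5, 59.1 and 59.8 CPM in Ctrl Input, 90.7, 91.9 and 90.4 in Ctrl IP, 48.8, 51.98 and 56.6 in IR Input and 56.9, 82.7 and 65.3 in IR IP, and its Input fell by 0.25 ± 0.05 on the log2 scale (edgeR adjusted p = 2.96e-04). This is RNA of all CD11b+ cells. The study reported a rise of YTHDF2 with IR in tumor myeloid-derived suppressor cells, by qPCR and flow cytometry, and no such rise of the protein in other infiltrating immune cells.

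**Figure D5:**
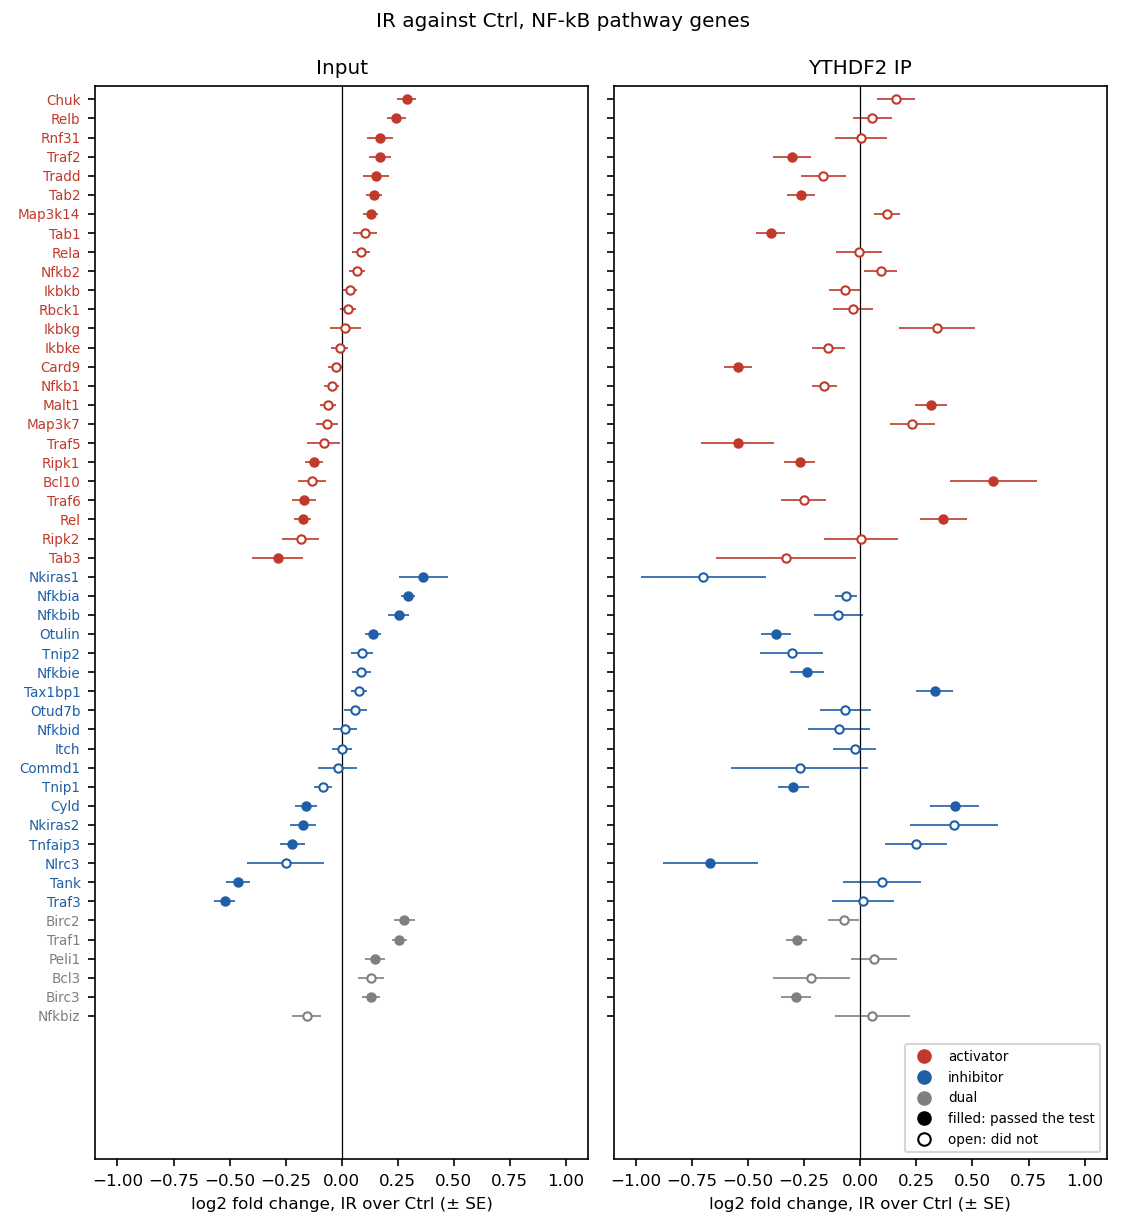
Log2 fold change of IR over Ctrl with SE (n = 3 pools per group) in the Input (left) and the YTHDF2 IP (right) for the 49 genes by class, ordered by the Input change; filled points passed the test. Input changes lie within about -0.52 and 0.36, with 15 filled to the right and 9 to the left; in the IP 5 are filled to the right and 12 to the left, which become 14 and 2 with library size as the only scaling.

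Several of the 49 are known targets of NF-kB, so the 250 bases before their start sites were searched for the kB consensus motif on both strands in the RefSeq promoter table (GRCm38.p6), in which 38 of the 49 genes were found. A match lay in 12 of these 38 genes, against 4.98% of 16514 protein-coding genes. The windows below hold the motif in capitals with 10 bases on either side, on the strand of the gene, and show the holders that moved most in the Input (Nfkbia, Traf3, Tank, Tnfaip3 and Rel).
Nfkbia, chr12:55492657-55492686, minus strand: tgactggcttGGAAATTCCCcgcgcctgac
Tnfaip3, chr10:19015403-19015432, minus strand: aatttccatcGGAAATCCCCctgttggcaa
Tnfaip3, chr10:19015516-19015545, minus strand: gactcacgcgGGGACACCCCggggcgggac
Rel, chr11:23771042-23771071, minus strand: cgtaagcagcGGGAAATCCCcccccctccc
Traf3, chr12:111166350-111166379, plus strand: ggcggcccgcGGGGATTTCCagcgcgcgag
Tank, chr2:61593015-61593044, plus strand: ctttgtgggcGGGGCTTTCCtgcagaggcg
These genes did not move together. Of the 12 with a match, 1 rose (Nfkbia) and 5 fell (Rel, Traf3, Tank, Tnfaip3 and Cyld) in the Input after IR. Of the 26 without one, 11 rose and 4 fell, where 21.0% and 23.9% of all genes tested did. The median changes were -0.11 with a match and 0.09 without. The falls of Rel, Tnfaip3 and Cyld were lost in the fit of all 12 libraries, and that of Cyld also without Ctrl Input replicate 3 or IR Input replicate 2. The same split was not made over all genes. The remaining holders, Nfkb2, Nfkbid, Nfkbie, Map3k7, Bcl10 and Tnip1, did not pass. A match is a description of the letters and no measure of binding by NF-kB, and overlapping matches, as in Rel, were counted each.

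In the IP, 5 of the 49 rose with IR, where 6.12% of 19255 genes did, and 12 fell, where 9.85% did, but 14 rose and 2 fell with library size as the only scaling. Rising were Bcl10, Cyld, Rel, Tax1bp1 (0.33 ± 0.08) and Malt1, and falling were Nlrc3 (-0.67 ± 0.21), Traf5 (-0.55 ± 0.16), Card9, Tab1 (-0.40 ± 0.07), Otulin, Traf2, Tnip1, Birc3, Traf1 (-0.28 ± 0.05), Ripk1, Tab2 and Nfkbie. Card9 and Tab1 fell and Malt1 rose under all 13 alternatives. These IP calls were the least stable of the 5 comparisons, as the 5 became 2, 3 and 1 and the 12 became 7, 7 and 6 without Ctrl IP replicate 1, 2 or 3, and the 5 became 3 without IR IP replicate 2. Without each library in turn 1 of the 5 (Malt1) and 5 of the 12 held, and the calls of Nlrc3, Traf5, Bcl10 and Nfkbie were each lost when any of 5 of the 6 IP libraries was left out.

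Of 17 receptors and signalling genes upstream of the 49, 9 were higher in the Ctrl IP and 4 lower, where 34.1% and 34.6% of all genes were, and 7 and 5 in IR, where 32.1% and 30.4% were. Ltbr, the lymphotoxin beta receptor that feeds the slower branch, was bound most (2.602 ± 0.05 in Ctrl and 2.07 ± 0.08 in IR), followed by the Toll-like receptor adaptor Ticam1 (1.496 ± 0.09 and 1.28 ± 0.10), while Ube2n, the E2 enzyme of TRAF6, was depleted (-2.08 ± 0.10 and -2.12 ± 0.14), as was the IL-1 receptor subunit Il1rap (-1.89 ± 0.18 and -1.04 ± 0.25). Binding fell after IR for 6 of the 17 and rose for 0, where 13.9% of all genes fell and 6.28% rose (with library size only 1 fell and 1 rose), among them Nod2 (-0.78 ± 0.14), Tirap (-0.51 ± 0.09), Ltbr (-0.51 ± 0.09) and Irak1 (-0.44 ± 0.05). In the Input 5 rose and 2 fell, where 21.0% and 23.9% of all genes did, with Nod2, a sensor of bacterial peptidoglycan, rising most (0.65 ± 0.08, edgeR adjusted p = 8.55e-08).

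Of 30 genes that NF-kB is known to induce, 27 were tested in the Input, and 14 rose and 4 fell with IR, where 21.0% and 23.9% of all genes did, with a median change of 0.30 beside 0.01 for all genes. In the same Inputs 6 of 9 neutrophil markers were higher in IR, and of 10 monocyte and macrophage markers 6 were higher and 3 lower. The part of these markers in the rise of the response genes was not tested. Plau, a protease of the cell surface, rose by 0.68 ± 0.04 (edgeR adjusted p = 5.19e-13) and the growth factor Csf1 by 0.64 ± 0.05 (1.22e-11), whereas Vcam1 fell by 1.36 ± 0.15 on the log2 scale (1.56e-08) and Il6 by 0.97 ± 0.25 (0.00226), both at low levels. In Ctrl 6 were higher in the IP and 18 lower, where 34.1% and 34.6% of all genes were, with a median log2 IP over Input of -0.80, and in IR 6 were higher and 16 lower of 28, where 32.1% and 30.4% were. The chemokine genes Cxcl3 (-2.21 ± 0.26 in Ctrl and -2.59 ± 0.26 in IR) and Ccl2 (-1.87 ± 0.24 and -2.11 ± 0.27) and the antioxidant enzyme gene Sod2 (-1.71 ± 0.07 in Ctrl) were, with Il6 (-1.83 ± 0.36), the 4 most depleted in Ctrl. In IR Cxcl3 was followed by the chemokine genes Ccl4 (-2.22 ± 0.18), Ccl2 and Ccl5 (-2.04 ± 0.08). Binding fell after IR for 9 of 28 and rose for 0, where 13.9% of all genes fell and 6.28% rose (with library size only 2 fell and 2 rose), among them Ier3 (-0.64 ± 0.09) and Icam1 (-0.53 ± 0.07).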

How the data were processed

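Tumor-infiltrating CD11b+ cells gave 3 Input and 3 YTHDF2 IP libraries per condition. The authors trimmed reads with Trimmomatic 0.39 and deposited raw HTSeq counts per gene on mm10; per the labels the counting used HTSeq, whose strand option is not given in the sources used here. The labels name mRNA isolation and the methods a stranded total RNA kit, and the 2 sources name antibodies of different makers. Symbols and coordinates came from GENCODE M21 (99.93% of identifiers matched with or without version). The 49 genes, their roles and the upstream, response and marker lists were chosen with earlier results of these data known.

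Counts were scaled with TMM over the libraries of each comparison and tested with edgeR 4.0.16 (quasi-likelihood test, R 4.3.3) for genes that reached 10 counts in 3 or more of the libraries compared; p-values were adjusted over all such genes (Benjamini-Hochberg, threshold 0.05), and SE was the absolute log2 fold change over the square root of F. Ratios per pool used a prior count of 2. Summary lines for reads on no gene were left out of library sizes. Replicates differed by more than counting noise (variance-to-mean ratio 3.59 to 21.5), which does not show that pools are independent. The methods keep part of each lysate as Input, so Input and IP of the same number were taken as 1 pool for a block; their deviations from the group means correlated at -0.0183 to 0.0151. Numbers shared by Ctrl and IR mark different mice.

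Genes named with values were the subunits, the IkB genes, every member past the threshold for the change of binding, and in each other comparison the 6 members with the largest absolute change among those past the threshold with at least 50 counts on average and no overlap of groups. Of each pathway list up to 4 genes per comparison were named. Other members are given for completeness. On simulated counts with 200 genes changed 2-fold, the share edgeR found was 87% for Ctrl binding over 16914 genes, 68.5% for IR binding over 18058, 70.5% for its change over 19884, 93.5% for the Inputs over 16595 and 67.5% for the IPs over 18136. False calls made up 3.61% (Inputs) to 6.45% (Ctrl binding) of the calls. The changed genes had at least 50 counts on average, and most changes with IR reported here are under 2-fold, so these shares do not give the power for them. The simulation gave each gene the same dispersion in all groups and raised as many genes as it lowered. It therefore held neither the larger noise of the IR IP nor any doubt about the scaling. Its share of false calls does not carry over to the calls reported here. The alternatives tried were scaling by DESeq2's size factors, scaling by library size alone, DESeq2 1.42.0, no filter, the replicate block, all 12 libraries in 1 fit, protein-coding nuclear genes only, a prior count of 0.25 and each library left out.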

Additional observations from a re-analysis of the deposited data

Results flagged for a closer look

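The effect of the YTHDF2 IP against the Input differed between Ctrl and IR, by the interaction test of edgeR, for 24 of the 49 genes. Of these 18 were lower in IR, where 13.9% of 20720 genes were, and 6 higher, where 6.28% were, but with library size as the only scaling 4 were lower and 13 higher. The log2 change of IP over Input was -1.15 for Nkiras1, -0.63 for Traf1, -0.61 for Card9, -0.60 for Otulin, -0.59 for Tab1, -0.56 for Traf2, -0.55 for Traf5, -0.51 for Birc3 and -0.50 for Tab2. It was -0.48 for Tnip2, -0.45 for Nfkbia, -0.44 for Birc2, -0.44 for Nfkbib, -0.41 for Nfkbie, -0.41 for Tradd, -0.30 for Tnip1, -0.28 for Relb and -0.20 for Nfkb1. It was 0.64 for Bcl10, 0.50 for Nkiras2, 0.49 for Cyld, 0.47 for Tank, 0.46 for Rel and 0.29 for Malt1. The share of uniquely aligned reads on no gene, which entered no comparison, was 51.4% in the IR IPs on average against 42.3% in the Ctrl IPs.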

How the results depend on the processing

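With library size as the only scaling, the change of binding was higher for 13 genes and lower for 4, and the IP changed for 14 higher and 2 lower. The sign turned for the change of binding of Nfkb1 (0.11), Nfkb2 (0.25), Relb (0.0326), Map3k14 (0.21) and Tnip1 (0.00898) and for Nfkbia in the IP (0.14), and no other member result changed sign with a call. In the fit of all 12 libraries, 2 genes were lower in the Input. Class medians of log2 IP over Input per pool, on the CPM scale of all 12 libraries, moved with the scaling. With TMM they were 0.203 and -0.168 for activators in Ctrl and IR and -0.387 and -0.331 for inhibitors. With DESeq2's size factors they were 0.335 and 0.045 for activators in Ctrl and IR and -0.255 and -0.118 for inhibitors. With library size only they were 0.138 and 0.1 for activators in Ctrl and IR and -0.451 and -0.0627 for inhibitors. Which class median moved more with IR thus depended on the scaling. A scaling factor shifts all genes of a library alike, so both class medians of a pool move together and the gap between them stays.

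Leaving out 1 library at a time gave 22 to 23 genes higher and 21 to 23 lower in the IP in Ctrl, 14 to 18 and 18 to 20 in IR, 4 to 9 and 11 to 20 for the change of binding, 11 to 16 and 6 to 10 in the Input, and 1 to 6 and 6 to 11 in the IP of IR against Ctrl. With the replicate block, 22 were higher and 23 lower in Ctrl, 16 and 20 in IR, and 5 and 16 for the change of binding. By number alone, with different mice paired, the block gave 16 and 12 in the Input and 5 and 13 in the IP, where Nfkbiz, Ripk2 and Tnip1 (lower) and Tax1bp1 (higher) were gained in the Input and Nfkb1 (lower) in the IP. Correlations of the deviations were -0.0183 to 0.024 over all such pairs, so the numbers alone gave no sign of pairing. Depth limits the low transcripts most, of which Nlrc3, Nkiras1 and Tab3 had the lowest levels per length.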
